A study of Homo sapiens with 8 samples.

Results

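Chidamide, an inhibitor of histone deacetylases (HDACs), was compared with its solvent DMSO in Raji cells by RNA-seq. The comparison comprised 4 of the 8 libraries of the series, 2 of Raji treated with DMSO and 2 of Raji treated with chidamide at 3 μM, chosen by their labels, and the other 4 libraries are of Raji-4RH, a rituximab-resistant line derived from Raji. Treatment lasted 24 h in every library, and cells were collected by flow sorting before the RNA was extracted. Raji is an established Burkitt lymphoma line that is sensitive to rituximab and that carries the Epstein-Barr virus. All libraries of the comparison come from this 1 line at the same low passage range, and no source used here says whether the 2 replicates of a group were separate cultures, so that the p-values measure only the spread between these libraries, which may be technical.

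HDACs remove acetyl groups from the tails of histones and from other proteins, and as parts of corepressor complexes they hold many genes at a low level. Chidamide is a benzamide that acts mainly on the class I enzymes HDAC1, HDAC2 and HDAC3 and on HDAC10, and acetylated histones accumulate in cells exposed to it. In B cell lymphoma, HDAC inhibitors are known for slowing the cell cycle and for raising genes that are silent or weakly transcribed.

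The deposited values are FPKM, reads of a gene per kilobase of its length and per 1000000 reads of the library. The Raji libraries held between 19747915 and 20829054 reads over all genes. In part of the deposited table the values stand up to 14 rows below the gene labels, and each gene was given the row to which a fixed list of row shifts assigns it, which placed 18143 of 63967 labels, together 92.2% to 93.2% of the reads in each Raji library. Of these, 10710 genes reached 1 FPKM in at least 2 of the 8 libraries and were tested with limma on log2(FPKM + 1), a scale that understates the change of weakly expressed genes. On that scale the DMSO replicates correlated at r = 0.998 across genes, the chidamide replicates also at 0.998, and a DMSO library with a chidamide library at 0.960 to 0.961. The first principal component held 95.6% of the variance of the 4 libraries and separated chidamide from DMSO. Read counts of the replicates differed by more than sampling noise, with a chi-square of 5.54 per gene between the DMSO libraries and 1.83 between the chidamide libraries.

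The libraries carried the markers of a B cell. All 10 B cell markers listed had at least 20 reads in each Raji library, and 4 were called higher with chidamide and 2 lower. Their summed reads were 2992 and 2927 per 1000000 in the DMSO libraries and 3339 and 3302 in the chidamide libraries, whereas their summed FPKM, in which the fall of CD79A weighs most, went from 1158 and 1117 to 1026 and 1013. The B cell factor PAX5 was not called, with 35.7 and 36.7 FPKM and 40.6 and 41.6 FPKM (adjusted p = 0.0512). The 8 T cell markers summed to 0.156 and 0.104 FPKM with DMSO and to 1.21 and 1.41 FPKM with chidamide. The 2 that passed the filter were both called higher, CD3E (not called after quantile normalization, adjusted p = 0.166) with 4 and 3 reads against 26 and 31 and CD4 with 2 and 1 reads against 33 and 26, while CD8A had 0 reads in the 4 libraries. The part of T cell RNA in other differences was not tested.

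A trace of liver transcripts was found in both DMSO libraries. Of 18 genes that mark hepatocytes and fetal liver, chosen after the data were seen, 17 had more reads in each DMSO library than in either chidamide library. Albumin (ALB) had 150 and 144 reads with DMSO and 0 and 2 with chidamide, and apolipoprotein B (APOB) had 95 and 104 reads against 0 and 0. Together the 18 genes held 705 and 762 reads in the DMSO libraries, or 35.7 and 37.8 per 1000000, and 26 and 38 reads in the chidamide libraries, or 1.26 and 1.82 per 1000000. The epithelial keratin KRT8 had 18 and 22 reads against 1 and 2. Of the 9 epithelial and stromal markers, 4 had more reads in each DMSO library than in either chidamide library, and 3 had fewer. None of the 18 genes belongs to a list described here, and 5 of them were among the genes tested and called lower, 4 of these by at least 1 on the log2 scale. The part of these transcripts in the other differences was not tested.

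**Figure D1:**
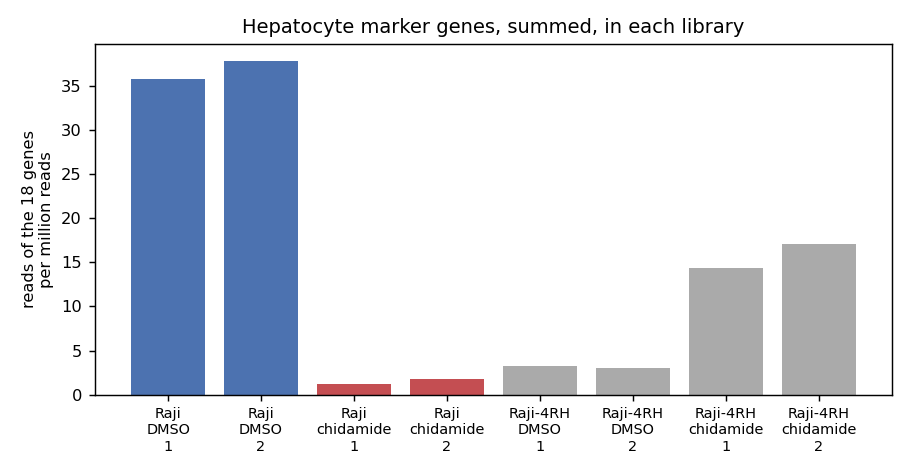
Summed reads of 18 hepatocyte marker genes per 1000000 reads (vertical axis) in each of the 8 libraries, with Raji DMSO in blue, Raji chidamide in red and Raji-4RH in grey. The Raji DMSO libraries stand at 35.7 and 37.8, the Raji chidamide libraries at 1.26 and 1.82, and the Raji-4RH libraries between 3.02 and 17.1.

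Chidamide changed the level of 60.0% of the genes tested, and the large changes were mostly rises. At an adjusted p-value under 0.05, 3370 of the 10710 genes were higher with chidamide, 31.5% of those tested, and 3051 were lower, or 28.5%. A rise of at least 1 on the log2 scale was seen in 468 genes (4.37%) and a fall of that size in 92 genes (0.859%). The balance of small changes depended on the scaling between libraries, with 2643 higher and 3432 lower after quantile normalization and 3036 higher and 3421 lower with median-centred libraries. The median change over all genes tested was 0.017.

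The balance of rises and falls differed with the level of a gene. To keep the grouping free of the compared libraries, genes were grouped by their mean level in the DMSO libraries of Raji-4RH, and those under 1 FPKM there are left out, because they passed the filter only through another group. Of the 2971 genes from 1 to 5 FPKM, 39.3% were higher with chidamide in Raji and 14.2% lower. Of the 4052 genes from 5 to 20 FPKM, 25.5% were higher and 34.0% lower. Of the 1975 genes from 20 to 100 FPKM, 15.2% were higher and 52.7% lower. A rise of at least 1 on the log2 scale was found in 4.91% of the genes from 1 to 5 FPKM and in 1.11% of those from 20 to 100 FPKM. The 310 genes over 100 FPKM did not continue this order, with 15.5% higher, 43.5% lower and 1.94% higher by at least 1. The same limit holds for the gene lists described here, whose counts cover the members that passed the filter. A gene that is silent with DMSO could pass it only where it is high, so those counts describe the members and do not support a direction of the list.

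**Figure D2:**
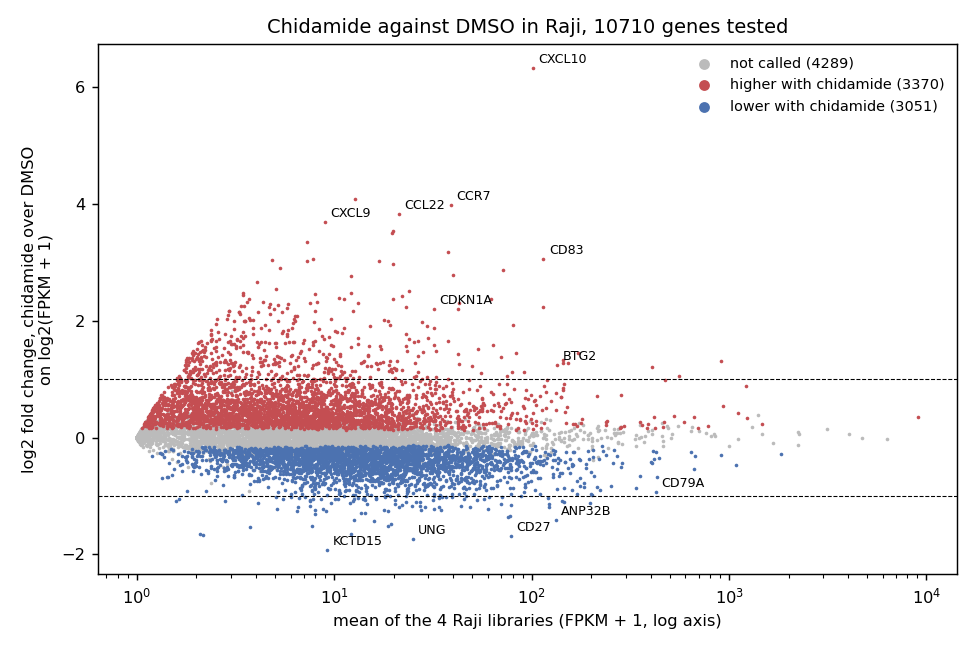
Each point is 1 of the 10710 genes tested, with its mean FPKM + 1 over the 4 Raji libraries on a log axis (horizontal) and its log2 fold change between chidamide and DMSO (vertical). Red points are the 3370 genes called higher, blue points the 3051 called lower, dashed lines mark changes of 1, and the rises of CXCL10, CCR7 and CCL22 exceed the largest fall, that of KCTD15.

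Of the 10 largest rises, 4 were in chemokines or a chemokine receptor. CXCL10, an interferon-inducible chemokine that attracts T cells, stood at 1.55 and 1.44 FPKM in the DMSO libraries and at 199 and 200.1 FPKM in the chidamide libraries. Its groups were far apart, with a 134-fold higher mean and a log2 change of 6.33 with a standard error (SE) of 0.057 (adjusted p = 3.33e-10). CXCL9, which binds the same receptor, went from 0.259 and 0.308 FPKM to 16.1 and 15.1 FPKM. CCL22, a chemokine that attracts regulatory T cells, went from 1.94 and 1.66 FPKM to 38.7 and 38.7 FPKM, a log2 fold change of 3.83. CCR7, the receptor that guides lymphocytes to the T cell zone, went from 3.69 and 3.58 FPKM to 69 and 75.4 FPKM, with a log2 change of 3.98 (SE 0.066). Of 15 chemokines and receptors placed, 11 were tested, and 9 of these rose, 6 of them by at least 1 on the log2 scale, and 0 fell. The median of the 11 members was 1.56 on the same scale, and 2.56 with limma voom. Of the 11, 7 had 1 FPKM or more in both DMSO libraries, and 5 of these 7 rose.

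The other large rises had mixed roles. The lectin CLEC17A, which is expressed on germinal centre B cells, was nearly silent with DMSO at 0.362 and 0.466 FPKM and reached 23.4 and 22.4 FPKM with chidamide. BCL2A1, a survival protein of the BCL2 family, went from 1.91 and 2.51 FPKM to 34.2 and 36.1 FPKM. FSCN1, which bundles actin, went from 0.219 and 0.363 FPKM to 11.4 and 13.1 FPKM. By the choice of these genes, none of their groups overlapped. SGK1, a kinase related to AKT, rose by 3.54 on the log2 scale, from 2.12 and 2.13 FPKM to 35.1 and 35.5 FPKM, and the stress-inducible IER3 rose by 3.06.

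**Figure D3:**
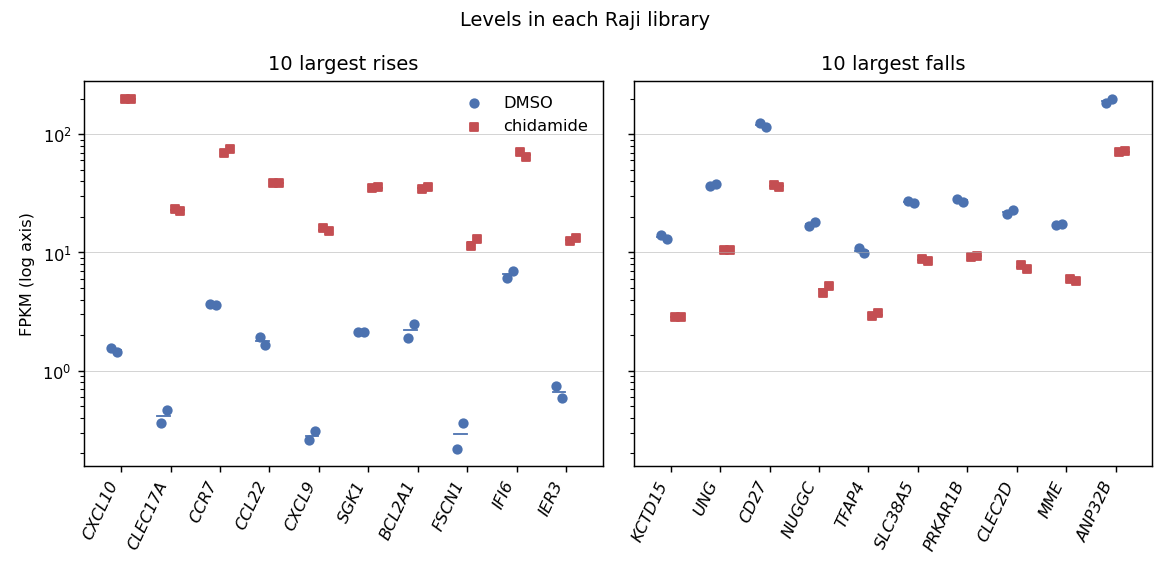
FPKM on a log axis (vertical) of the 10 largest rises (left) and the 10 largest falls (right) in each Raji library, with DMSO as blue circles, chidamide as red squares and short lines at the group means (n = 2). The 20 genes were chosen among called genes whose groups do not overlap, and CXCL10 spans the widest range.

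NF-kB is the transcription factor family that CD40 and related receptors activate. Of 17 NF-kB subunits and targets tested, all 17 at 1 FPKM or more in both DMSO libraries, 11 rose, 9 of them by at least 1, 2 fell and 4 were not called, with a median of 1.20. CD83, a marker of activated B and dendritic cells, went from 23.8 and 23.5 FPKM to 203 and 204 FPKM, a log2 change of 3.06 (SE 0.087, adjusted p = 1.75e-07). TNFAIP3, which encodes the feedback inhibitor A20, went from 2.54 and 2.9 FPKM to 29 and 29.3 FPKM. EBI3, a cytokine subunit, went from 9.94 and 8.31 FPKM to 66.7 and 70.2 FPKM. The adaptor TRAF1 rose by 2.43 and the subunit NFKB2 by 1.48, while the subunit NFKB1 stood at 14.8 and 15.1 FPKM with DMSO and 16.2 and 17.3 FPKM with chidamide and was not called (adjusted p = 0.0768). TRAF2, another adaptor, fell by 0.31.

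Of 32 interferon-stimulated genes placed, 26 were tested, of which 23 rose, 10 of them by at least 1, and 0 fell, with a median of 0.84. The median was 1.49 with a pseudocount of 0.1 and 1.74 with limma voom, and after quantile normalization 21 rose and 2 fell. Of the 26, 12 had 1 FPKM or more in both DMSO libraries, and 11 of these 12 rose. IFI6, a mitochondrial protein, went from 6.09 and 6.94 FPKM to 70.2 and 63.6 FPKM, a log2 change of 3.18 (SE 0.13). IFIT3, which is part of a complex that binds viral RNA, went from 0.0959 and 0.113 FPKM to 5.92 and 6.07 FPKM. The rise was uneven, since ISG15 rose by 0.37 and MX1 reached at most 0.0111 FPKM in the 4 libraries. In the JAK, STAT and SOCS list 9 of 15 members rose and 1 fell, and of the 12 with 1 FPKM or more in both DMSO libraries 7 rose. The kinase TYK2 rose by 1.27, the feedback inhibitor SOCS1 by 1.49 and the receptor IL21R by 1.15, and STAT6, which signals for IL-4, fell by 0.51.

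The upstream stretches of the genes in these groups are shown because the factors named above recognise short motifs in them. The 250 bases before the RefSeq start (GRCh38.p14) of 27305 genes were searched on both strands, and 8649 of the 10710 genes tested had such a promoter. The interferon response element, searched as GAAA, any 2 bases and GAAA again, was present in 3.07% of all promoters, in 2.34% of those of the genes tested and in 7.41% of the 351 promoters of genes that rose by at least 1. Among the interferon-stimulated genes tested it was present in 13 of 20 promoters. The NF-kB site, searched as GGG, any 2 bases, TT, any base and CC, was present in 5.08% of all promoters, in 6.06% of those of the genes tested, in 8.55% of those of the genes that rose by at least 1 and in 8 of the 15 promoters of NF-kB subunits and targets. A match describes the letters and not the binding of a factor, and other spellings of these sites were not searched. The stretches run 5′ to 3′ along the gene's strand, with the matches in capitals. By the searched patterns CXCL10 holds an interferon element and, nearer to the start, an NF-kB site. IFI6 and IFIT3 hold interferon elements, whereas TNFAIP3 and EBI3 hold NF-kB sites.
CXCL10, chr4:76023598-76023730, minus strand: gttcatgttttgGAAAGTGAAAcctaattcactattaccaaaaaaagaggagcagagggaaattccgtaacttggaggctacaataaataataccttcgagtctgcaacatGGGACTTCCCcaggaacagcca
IFI6, chr1:27672264-27672360, minus strand: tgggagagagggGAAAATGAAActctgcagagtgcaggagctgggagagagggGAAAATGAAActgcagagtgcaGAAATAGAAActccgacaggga
IFIT3, chr10:89327829-89327896, plus strand: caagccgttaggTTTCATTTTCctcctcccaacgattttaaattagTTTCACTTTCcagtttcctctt
TNFAIP3, chr6:137867180-137867225, plus strand: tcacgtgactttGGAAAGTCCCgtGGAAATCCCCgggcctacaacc
EBI3, chr19:4229444-4229477, plus strand: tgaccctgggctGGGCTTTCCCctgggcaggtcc

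Antigen presentation and costimulation were examined next. Of 9 MHC class II genes tested, 6 rose (66.7%), 5 of them by at least 1, and 1 fell (11.1%). Of the 7 with 1 FPKM or more in both DMSO libraries, 4 rose and 1 fell. HLA-DRB1 went from 12.5 and 12.8 FPKM to 48.2 and 49.7 FPKM and HLA-DQB1 from 0.94 and 1.13 FPKM to 6.44 and 6.17 FPKM. Their reads cannot be separated with certainty from those of near-identical HLA copies. CIITA, the master regulator of MHC class II, went from 15.5 and 14.5 FPKM to 45.9 and 48.3 FPKM, a log2 fold change of 1.59, whereas RFXAP, a subunit of the complex that recruits CIITA, fell by 0.38. Of 11 costimulatory and checkpoint ligands, 9 rose (81.8%) and 0 fell, and of the 8 with 1 FPKM or more in both DMSO libraries 6 rose. CD86, which engages CD28 on T cells, went from 9.38 and 9.46 FPKM to 35.3 and 34.5 FPKM and CD80 rose by 1.13. TNFSF9, the ligand of 4-1BB, rose by 1.52, from 27.9 and 25.5 FPKM to 77.3 and 78.9 FPKM. CD274, which encodes the checkpoint ligand PD-L1, went from 0.111 and 0.218 FPKM to 2.27 and 1.83 FPKM. Among 7 genes of MHC class I and peptide loading, 5 rose (71.4%) and 1 fell (14.3%), beside 31.5% and 28.5% of all genes tested. With median-centred libraries 4 rose and 2 fell. The rises were smaller, such as 0.58 for the regulator NLRC5 and 0.49 for the transporter TAP1.

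B cell surface molecules moved in both directions. Of 14 B cell surface antigens, 6 rose (42.9%) and 3 fell (21.4%), beside 31.5% and 28.5% of all genes tested. CD40, the receptor for T cell help, went from 16.7 and 17.9 FPKM to 56.4 and 56.3 FPKM, and FCER2, the low-affinity IgE receptor CD23, from 5.39 and 5.33 FPKM to 22.8 and 22.9 FPKM. MS4A1, which encodes CD20, the target of rituximab, went from 53.8 and 58.7 FPKM to 129 and 118 FPKM, a log2 change of 1.12 (SE 0.079, adjusted p = 9.38e-06). In the other direction, CD27 went from 124 and 115 FPKM to 36.9 and 35.7 FPKM and MME, the germinal centre marker CD10, from 17.1 and 17.5 FPKM to 5.94 and 5.76 FPKM. The groups of these 5 genes did not overlap, which holds for every gene called. CR2, the complement receptor CD21, rose by 1.92, from 31.4 and 33.4 FPKM to 127 and 125 FPKM.

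The B cell receptor list had 13 rises (52%) and 7 falls (28%) among 25 genes, beside 31.5% and 28.5% of all genes tested. CD79A, a signalling chain of the receptor, went from 575 and 537 FPKM to 292 and 288 FPKM, and the adaptor BLNK fell by 0.88. The phosphatase PTPN6, which dampens receptor signals, went from 10.6 and 9.85 FPKM to 44.2 and 42.8 FPKM, and the kinase PRKCB rose by 0.86. Of 17 B cell transcription factors, 7 rose (41.2%) and 6 fell (35.3%), not far from the shares of all genes tested. IRF4, a factor of activated B cells and plasma cells, went from 0.498 and 0.572 FPKM to 5.04 and 5.36 FPKM, a log2 fold change of 2.01. BACH2, which restrains plasma cell differentiation, went from 5.36 and 3.9 FPKM to 1.43 and 1.73 FPKM, with the DMSO replicates apart from each other but above both chidamide libraries. BCL6, the germinal centre repressor, fell by 0.34. Of 6 plasma cell markers tested, 2 rose, 2 fell and 2 were not called. IRF4 and PRDM1 were the rises, PRDM1 by 0.35 (not called after quantile normalization, adjusted p = 0.94), and in the other direction JCHAIN went from 425 and 442 FPKM to 237 and 239.7 FPKM and MZB1 fell by 0.72. The inhibitors of E proteins ID2 and ID3 rose by 1.63 and 1.45.

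The 10 largest falls were smaller than the rises and had mixed roles. KCTD15, a BTB domain protein, went from 14 and 13 FPKM to 2.83 and 2.83 FPKM, a log2 change of -1.93 (SE 0.063). UNG, the uracil glycosylase that acts after AID, went from 36.6 and 38.2 FPKM to 10.5 and 10.5 FPKM. NUGGC, a GTPase of germinal centre B cells, went from 16.8 and 18 FPKM to 4.58 and 5.19 FPKM. TFAP4, a target of MYC, fell by 1.51 and the glutamine transporter SLC38A5 by 1.51. MYC itself stood at 169.5 and 155 FPKM with DMSO and 169 and 169.5 FPKM with chidamide and was not called (adjusted p = 0.578). ANP32B, a histone chaperone, was the most abundant of the 10, at 183 and 199.8 FPKM and 70.3 and 71.7 FPKM. PRKAR1B and the lectin CLEC2D fell by 1.48 and 1.44.

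Many genes of the cell cycle engine fell, and several inhibitors of cyclin-dependent kinases rose. In bulk libraries, fewer cells in a phase of the cycle and less RNA per cell cannot be told apart. CDKN1A, which encodes p21, went from 10.7 and 10.1 FPKM to 51.6 and 51.4 FPKM and CDKN1B, which encodes p27, from 5.08 and 5.24 FPKM to 14.2 and 13.2 FPKM. Of 7 CDK inhibitors tested, 4 rose (57.1%) and 1, CDKN2C, fell by 0.47 (14.3%). Of 10 cyclins, 4 fell (40%) and 1 rose (10%), beside 28.5% and 31.5% of all genes tested. Of the genes from 20 to 100 FPKM in the grouping by level, 52.7% fell. CCNA2, the cyclin of S phase and G2, went from 65.1 and 67.5 FPKM to 29 and 28.1 FPKM, a log2 change of -1.19 (SE 0.059), CCNB1 fell by 0.59 and CCND3 by 0.49, and CCNG2, a cyclin of resting cells, rose by 0.52. Among 14 cell cycle kinases and phosphatases, 10 fell (71.4%) and 0 rose, with falls of 1.18 in CDC25A and 0.65 in CDK2. Of 16 E2F factors and pocket proteins, 11 fell (68.8%), among them E2F8 by 1.05 and MYBL2 by 1.08, and 1 rose (6.25%). That 1 was the retinoblastoma gene RB1, which went from 7.83 and 7.98 FPKM to 13.5 and 12.8 FPKM.

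DNA replication genes fell nearly as a whole. Of 46 replication genes, 38 fell (82.6%) and 1 rose (2.17%), beside 28.5% and 31.5% of all genes tested. The median was -0.59, and 8 of the 38 fell by at least 1. MCM4, a subunit of the replicative helicase, went from 109.8 and 112 FPKM to 43.3 and 42.6 FPKM. CDC45, which activates that helicase, went from 19.7 and 18.8 FPKM to 7.45 and 7.07 FPKM, and the loader CDC6 fell by 1.26. Of 12 genes of deoxynucleotide synthesis, 9 fell (75%), among them thymidylate synthase (TYMS) by 1.08 and the ribonucleotide reductase subunit RRM2 by 0.97. The single rise was SAMHD1, an enzyme that breaks deoxynucleotides down, from 13.8 and 14.5 FPKM to 25.6 and 25 FPKM. Of 36 DNA repair genes, 24 fell (66.7%) and 4 rose (11.1%). BRCA1, which acts in recombination, fell by 0.82, while the checkpoint kinase ATM rose by 0.40.

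Of 32 genes of the mitotic spindle and of chromosome segregation, 27 fell (84.4%) and 1 rose, with a median of -0.47. Of all genes tested, 28.5% fell. The spindle checkpoint protein MAD2L1 went from 21.6 and 23.6 FPKM to 11.9 and 11.6 FPKM, and the kinase PLK1 from 55.4 and 52.3 FPKM to 31.7 and 31.9 FPKM. The chromosome passenger CDCA8 fell by 0.76, whereas the securin PTTG1 was higher, at 44.7 and 47.3 FPKM with DMSO and 55 and 55.6 FPKM with chidamide.

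The promoters of these genes are shown for the motifs that cell cycle factors recognise. The E2F site, searched as TTTNNCGC on both strands of the same 250 bases, was present in 5.93% of all promoters, in 9.31% of those of the genes tested and in 16 of the 40 promoters of replication genes. The CHR element of late cell cycle genes, searched as TTTGAA and TTCGAA, was present in 14.6% of all promoters, in 9.53% of those of the genes tested and in 15 of the 26 of mitosis genes, and the CCAAT box, searched as CCAAT, in 33.0% of all promoters, in 36.0% of those of the genes tested and in 20 of the 26. Among the 76 genes that fell by at least 1 and had a promoter, 9 held an E2F site (11.8%). E2F1, E2F2 and CDC25A hold E2F sites, and PLK1 and CDCA8 hold CHR elements and CCAAT boxes, shown in capitals. In E2F1, E2F2 and CDCA8 neighbouring matches touch or overlap and form 1 run of capitals.
E2F1, chr20:33686386-33686519, minus strand: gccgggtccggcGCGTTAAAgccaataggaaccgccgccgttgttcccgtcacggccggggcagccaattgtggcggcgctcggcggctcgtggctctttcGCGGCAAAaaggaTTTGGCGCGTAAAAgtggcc
E2F2, chr1:23531252-23531322, minus strand: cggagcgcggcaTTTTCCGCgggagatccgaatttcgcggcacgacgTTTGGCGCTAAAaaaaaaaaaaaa
CDC25A, chr3:48188442-48188473, minus strand: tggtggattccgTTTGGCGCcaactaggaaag
PLK1, chr16:23678804-23678877, plus strand: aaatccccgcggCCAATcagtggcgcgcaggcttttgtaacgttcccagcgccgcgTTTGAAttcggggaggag
CDCA8, chr1:37692389-37692514, plus strand: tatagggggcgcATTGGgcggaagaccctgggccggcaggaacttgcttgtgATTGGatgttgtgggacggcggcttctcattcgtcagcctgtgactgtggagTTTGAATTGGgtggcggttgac

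**Figure D4:**
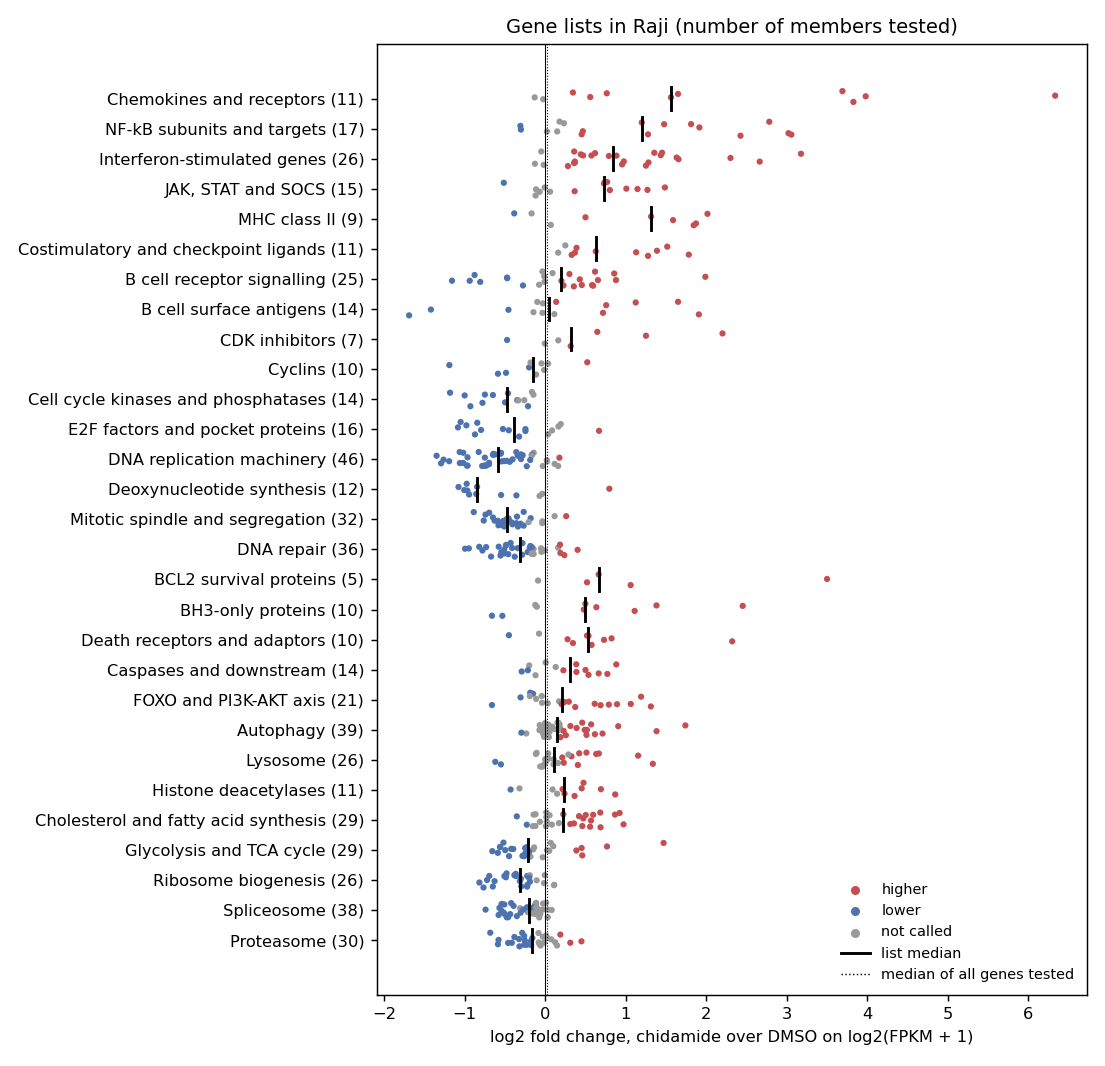
Log2 fold change between chidamide and DMSO (horizontal) of each tested member of 29 gene lists (1 row per list, with the number of members), red where called higher, blue where called lower and grey where not called. Black bars are list medians, which run from 1.56 for chemokines to -0.85 for deoxynucleotide synthesis, and the dotted line is the median of all genes tested.

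Genes of apoptosis moved on both sides of the balance. Of 10 BH3-only proteins, which trigger apoptosis, 6 rose (60%) and 2 fell (20%), beside 31.5% and 28.5% of all genes tested. BMF went from 1.42 and 1.53 FPKM to 12.2 and 12.9 FPKM, a log2 change of 2.45 (SE 0.066), BBC3, which encodes PUMA, from 4.33 and 3.72 FPKM to 12.1 and 12 FPKM, and PMAIP1, which encodes NOXA, from 34.6 and 33.2 FPKM to 76.4 and 72.2 FPKM. BCL2L11, which encodes BIM, rose by 0.64, and BIK and BID fell by 0.66 and 0.53. Of 5 survival proteins, 4 rose (80%) and 0 fell, and of the 4 with 1 FPKM or more in both DMSO libraries 3 rose. Besides BCL2A1, BCL2 went from 0.831 and 0.928 FPKM to 2.79 and 3.05 FPKM and MCL1 from 72.7 and 72.6 FPKM to 116 and 116 FPKM. Of the pore formers, BAX fell by 0.45. BAK1 stood at 19.9 and 20.6 FPKM with DMSO and 23.8 and 21.8 FPKM with chidamide, and its call (adjusted p = 0.0476) was lost when either DMSO library or the first chidamide library was left out, at adjusted p-values of 0.178, 0.0887 and 0.302.

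Of 10 death receptors and adaptors, 8 rose (80%) and 1 fell (10%). The share that rose was 31.5% of all genes tested, and 39.3% of those from 1 to 5 FPKM in the grouping by level. The TNF receptor TNFRSF1B went from 1.64 and 1.78 FPKM to 12.6 and 12.5 FPKM, the caspase inhibitor CFLAR rose by 0.73, and TNFRSF10A, a receptor of TRAIL, fell by 0.45. Of 14 caspases and downstream genes, 8 rose (57.1%) and 2 fell (14.3%), CASP8 with a rise of 0.66 and APAF1 of 0.77. PARP1 was called with -0.21, which did not pass after quantile normalization (adjusted p = 0.074).

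In the axis of FOXO factors and PI3K-AKT signalling, 11 of 21 genes rose (52.4%) and 4 fell (19.0%). Of all genes tested, 31.5% rose and 28.5% fell. FOXO3 went from 3.15 and 2.98 FPKM to 9.13 and 9.07 FPKM, a log2 fold change of 1.31, and FOXO1 from 10.0 and 9.74 FPKM to 16.7 and 16.3 FPKM, a change of 0.69 (SE 0.056, adjusted p = 2.11e-05). The sestrins SESN3 and SESN1, known targets of FOXO factors, rose by 1.19 and 1.06, and AKT1 fell by 0.66. In the antiproliferative BTG and TOB family, BTG2 went from 79.5 and 78.1 FPKM to 191 and 186 FPKM and BTG1 from 9.24 and 10.0 FPKM to 18.8 and 18.7 FPKM. Of the 5 members tested, 3 rose (60%) and 2 fell (40%).

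Of 39 autophagy genes, 15 rose, 1 fell and 23 were not called. The share that rose, 38.5%, stood near the 31.5% of all genes tested, while the share that fell was 2.56% beside 28.5%. GABARAPL1, a protein of the autophagosome membrane, went from 0.558 and 0.559 FPKM to 4.45 and 3.97 FPKM, and the receptor OPTN from 0.138 and 0.106 FPKM to 1.93 and 1.92 FPKM. The receptor SQSTM1, or p62, stood at 11.7 and 11.3 FPKM with DMSO and 12.3 and 12.3 FPKM with chidamide (adjusted p = 0.308). MAP1LC3B, which encodes LC3, stood at 7.24 and 7.59 FPKM and 7.08 and 7.08 FPKM (adjusted p = 0.441), and neither gene was called. Of 26 lysosome genes, 10 rose, also 38.5%, and 2 fell, with the sphingolipid activator PSAP going from 80.3 and 80.4 FPKM to 206 and 203 FPKM and the protease CTSH rising by 1.15.

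No tested HDAC gene or corepressor partner changed by 1 or more on the log2(FPKM + 1) scale, which understates changes near silence. Of 11 HDACs, 7 rose (63.6%, beside 31.5% of all genes tested) and 1 fell. This direction rested in part on the scaling, since 4 rose and 1 fell after quantile normalization. HDAC1 went from 112 and 109.7 FPKM to 155 and 154 FPKM and HDAC3 from 17.8 and 18.6 FPKM to 24.7 and 25.9 FPKM, rises of 0.48 and 0.45. HDAC2 stood at 8.47 and 9.32 FPKM and 10.1 and 9.78 FPKM and was not called (adjusted p = 0.0838). HDAC9 had the largest change, from 0.0662 and 0.0915 FPKM to 0.969 and 0.973 FPKM, and HDAC7 fell by 0.43. Of 21 corepressor partners, 5 rose and 6 fell, or 23.8% and 28.6%, near the shares of all genes tested, and CHD3 fell by 0.83. Of 11 acetyltransferases and BET readers, 5 fell, KAT2A by 0.66, and 0 rose.

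A few other chromatin genes had larger changes. Of 14 genes of DNA methylation and Polycomb, 4 rose and 4 fell (28.6% each), near the shares of all genes tested, with a median of 0.008. Of 7 variant and linker histones, 4 rose and 2 fell, with a median of 0.17. The linker histone H1FX went from 14.9 and 13.3 FPKM to 67.8 and 68.9 FPKM, a log2 fold change of 2.20, and the variant H2AFZ fell by 0.85. JARID2, a partner of Polycomb, rose by 1.36 and PHF19, another, fell by 1.13, each by more than 1.

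Several lists of biosynthesis and energy supply had more falls than rises, with no fall of 1 or more on the log2 scale. Of 26 ribosome biogenesis genes, 20 fell (76.9%) and 0 rose, with a median of -0.31, TCOF1 by 0.82 and UBTF by 0.72. Of 38 spliceosome genes, 19 fell (50%) and 0 rose, U2AF2 by 0.74. Of 30 proteasome genes, 16 fell (53.3%) and 3 rose, and of 29 genes of glycolysis and the TCA cycle 16 fell (55.2%) and 5 rose. The share that fell was 28.5% of all genes tested, and 52.7% of those from 20 to 100 FPKM in the grouping by level. After quantile normalization 12 proteasome genes fell and 6 rose. The lactate dehydrogenase LDHA went from 229 and 249 FPKM to 159 and 159 FPKM, and the aldolase ALDOC in the other direction, from 13.4 and 14.4 FPKM to 40.7 and 39.8 FPKM. Cholesterol and fatty acid synthesis had the opposite balance, with 15 of 29 genes higher and 2 lower. HMGCS1, an early enzyme of cholesterol synthesis, went from 45 and 46.9 FPKM to 88.9 and 87.2 FPKM, and LSS, which closes the sterol rings, from 20.1 and 19 FPKM to 38.4 and 40.2 FPKM. Among 18 genes of the unfolded protein and integrated stress responses, 7 rose (38.9%) and 6 fell (33.3%), beside 31.5% and 28.5% of all genes tested. The chaperone HSPA5 fell by 0.86, and DDIT4, an inhibitor of mTORC1, went from 20.4 and 17.9 FPKM to 100.5 and 105 FPKM.

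Germline, neuronal, galectin, transporter, metallothionein and tubulin genes were examined, and some of them rose from low levels. TEX19, a germline gene, went from 0.34 and 0.667 FPKM to 7.72 and 7.64 FPKM, and SYT11, a vesicle protein of neurons, from 3.59 and 3.16 FPKM to 13.9 and 12.9 FPKM. Of 22 germline genes placed only 4 passed the filter, and of 29 neuronal genes only 10 passed it, of which 5 rose and 0 fell. After quantile normalization 2 neuronal genes rose and 2 fell. Galectin-1 (LGALS1) went from 0.461 and 0.632 FPKM to 3.8 and 3.58 FPKM, and the transporters ABCA2 and ABCA7 rose by 1.54 and 1.12. The metallothionein MT2A, which belongs to a family of near-identical copies, went from 36.8 and 38.9 FPKM to 98.4 and 102 FPKM. Tubulins moved apart, TUBB2A with a rise of 1.17 and TUBB with a fall of 0.65, and copies of this family may share reads.

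Markers of other blood cells were among the genes that rose from near silence. CSF1R, the receptor of a macrophage growth factor, had 8 and 6 reads with DMSO and 492 and 543 with chidamide, or 4.63 and 5.06 FPKM. The integrin ITGAM had 7 and 7 reads with DMSO and 462 and 423 with chidamide. Of 8 myeloid markers 5 were tested and 4 rose, and their sum went from 1.25 and 1.15 FPKM to 12.1 and 13.4 FPKM. CD33 had 14 and 13 reads against 165 and 187, and S100A9 1 and 0 against 13 and 26. In the same 4 libraries MPO had at most 1 read, S100A8 0 reads and CD14 at most 5. LYZ was not called, with 29 and 30 reads and 36 and 35 reads. The part of myeloid RNA in other differences was not tested. COL1A1, a collagen of stroma, rose from 0.191 and 0.137 FPKM to 2.13 and 2.3 FPKM, whereas COL1A2, which encodes its partner chain, had 0 reads with DMSO and 2 and 1 with chidamide.

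A stricter view of silent genes took those with at most 3 reads in each DMSO library and at least 1 FPKM in each chidamide library. There were 22 such genes, 16 of them protein-coding. LAIR2, a secreted immune receptor, had 0 reads in both DMSO libraries and 65 and 74 reads with chidamide. Its neighbour LAIR1, an inhibitory receptor on the same stretch of chromosome 19, had 2 and 3 reads against 383 and 347. Taken against the floor of 3 reads per library, the mean of LAIR2 was at least 22.3-fold higher. EGR2, an early growth response factor, had 3 and 3 reads with DMSO and 211 and 250 with chidamide. The interferon-induced neighbours IFI44L and IFI44 had 1 and 2 reads and 0 and 2 reads with DMSO, and 465 and 436 reads and 75 and 77 reads with chidamide. Of the 22 genes, 13 also had at most 3 reads in each DMSO library of Raji-4RH, and 13 reached 1 FPKM in both of its chidamide libraries. In the opposite direction 8 genes met the rule, of which the 4 protein-coding ones were the liver genes ALB, AFP, APOA2 and AHSG.

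The response of Raji differed from that of Raji-4RH in 5231 of the 10710 genes, or 48.8%, by the test of the difference between the log2 fold changes. The immune genes with the largest rises in Raji had lower fold changes in Raji-4RH, with IFI6 as an exception at 3.18 and 4.83. These genes were chosen for their rise in Raji, which favours differences of this sign. CXCL10 changed by 0.97 in Raji-4RH, and the difference between the lines was -5.36 (half-width of the 95% interval 0.19, adjusted p = 2.18e-08). In Raji-4RH it stood at 0.136 and 0.12 FPKM with DMSO and 1.28 and 1.15 FPKM with chidamide, where the pseudocount limits the log2 change. CXCL9 changed by 0.047 there and CCL22 by 0.36, with differences of -3.64 and -3.46. Both were near silence in Raji-4RH, CXCL9 at 0 and 0 FPKM with DMSO and 0.0261 and 0.0396 FPKM with chidamide and CCL22 at 0.0182 and 0.0322 FPKM and 0.342 and 0.297 FPKM, where the pseudocount holds the log2 change near 0. For BCL2A1, FSCN1 and CD83 the differences were -3.18, -3.24 and -2.11, and FSCN1 was under 1 FPKM in the 4 Raji-4RH libraries. In the NF-kB list 12 of 17 members differed between the lines, each with the lower value in Raji-4RH. TYK2 rose in Raji, while its log2 fold change in Raji-4RH was -0.0034, with a difference of -1.27. For CR2 the difference was -1.91, but it was at most 0.161 FPKM in the 4 Raji-4RH libraries, so that its change there is bound to be near 0 on this scale.

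Cell cycle genes fell less in Raji than in Raji-4RH. Of the 46 replication genes, 41 differed between the lines, 40 of them with the lower value in Raji-4RH, and of the 32 mitosis genes 28 differed, all 28 in that direction. CDC45 changed by -1.29 in Raji and by -3.33 in Raji-4RH, with a difference of -2.04 (adjusted p = 2.28e-06). E2F2 changed by -0.98 and -2.70 and TYMS by -1.08 and -2.61. For CDKN1A, CDKN1B and BBC3 the differences between the lines were 0.19, 0.16 and -0.087 with 95% half-widths of 0.22, 0.23 and 0.37, and none was called. Of the 5231 genes that differed between the lines, 2910 had the higher value in Raji-4RH and 2321 the lower. After quantile normalization the split was 2517 and 2534. Named genes that rose more in Raji-4RH were MT2A with a difference of 3.58, SESN3 of 1.88 and TEX19 of 1.84. MT2A stood lower in Raji-4RH than in Raji, at 1.27 and 1.31 FPKM with DMSO and 79.7 and 61.9 FPKM with chidamide. The chidamide and DMSO libraries of each line were separate, so that these comparisons share no control.

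**Figure D5:**
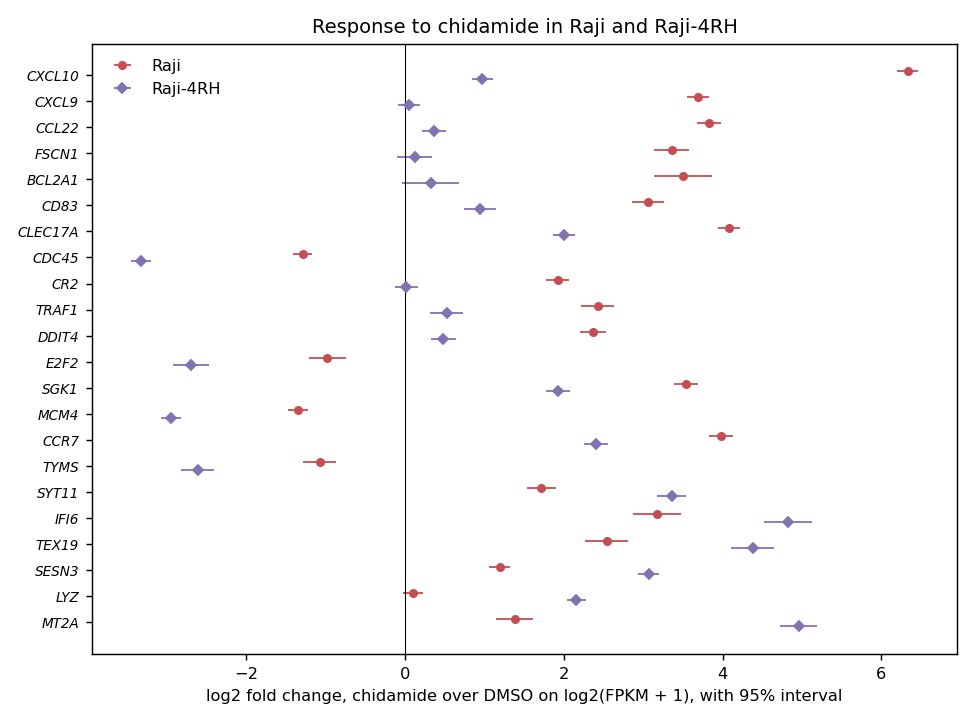
Log2 fold change between chidamide and DMSO (horizontal, with 95% intervals from limma) in Raji (red circles) and Raji-4RH (purple diamonds) for the named genes whose response differed by at least 1.5 on the log2 scale. Genes are ordered by the difference, from CXCL10, which rose by 6.33 in Raji and 0.97 in Raji-4RH, to MT2A, which rose by 1.38 and 4.96.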

How the data were processed

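RNA-seq values of 4 Raji libraries, 2 with DMSO and 2 with 3 μM chidamide for 24 h, were analyzed together with the 4 Raji-4RH libraries of the series, which share the estimate of the spread. The deposited values are FPKM, computed by the authors for each gene, in 1 table of all libraries. Libraries were made with the NEBNext Ultra RNA kit. The submitters' processing notes name HISAT2 2.0.5, SAMtools 1.7, HTSeq 0.9.1 and DESeq2 1.22.2 and the build GRCh38 (hg38). No source used here states stranded counting, so sense and antisense reads cannot be told apart.

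FPKM multiplied by gene length and library total gave whole reads for 100% of the non-zero values (tolerance 0.02 reads). Values in part of the table lie 1 to 14 rows below their labels. They were moved by a list of row shifts and rescaled to the length of the labelled gene. As a check without group differences, the shift used was the best of 18 tried in 12 of 12 segments at separating usually expressed from tissue-restricted gene families. The placing of 210 of the genes tested is less certain, since they lie within 20 rows of a change of shift. Gene types and gene positions were taken from GENCODE 29 on GRCh38. The coordinates printed with the promoter stretches follow the RefSeq starts on GRCh38.p14, which can differ from the GENCODE starts. The PLK1 stretch lies inside the GENCODE gene, which starts at 23677656.

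The genes that reached 1 FPKM in 2 or more of the 8 libraries were tested with limma 3.58.1 (trend) in R 4.3.3 on log2(FPKM + 1), with Benjamini-Hochberg adjustment and calls at adjusted p under 0.05. No count model was used as the main test, since the values are FPKM. On reads recovered from them, limma voom was an alternative. The smallest two-sided p of an exact permutation test is 0.333 for 2 against 2 libraries. Simulated data with 200 changed genes were used to test the script. The other alternatives were quantile normalization, median-centred libraries, no trend, a pseudocount of 0.1, other filters, only the Raji libraries, a replicate block, a log2 threshold of 1, the rows as deposited, only unshifted labels and leaving out each Raji library.

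The comparison and the 55 gene lists were chosen with earlier results of these data known. Named genes were the 10 largest rises and falls that were called, averaged 5 FPKM or more and did not overlap, up to 3 called rises and 3 called falls per list that averaged 1 FPKM or more, and genes that the study measured by other means. BCL2L11, BCL6, CD80, CIITA, HDAC2, HDAC9, ISG15, LYZ, MYC, NFKB1, NFKB2, PAX5, PRDM1 and TRAF1, the liver, keratin, collagen, T cell and myeloid genes, and the genes silent with DMSO were named after their values were seen. A few further genes are not reported here. Python 3.11.15 with pandas 2.3.3, numpy 2.4.6 and matplotlib 3.10.9 were used.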

Additional observations from a re-analysis of the deposited data

Results flagged for a closer look

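The difference between the chidamide responses of Raji-4RH and Raji passed the test in 5231 genes, and among the genes named here it was at least 1.5 on the log2 scale in 22. Negative values mean a lower fold change in Raji-4RH. Among chemokines and immune genes the differences were -5.36 for CXCL10, -3.64 for CXCL9, -3.46 for CCL22, -1.58 for CCR7, -2.11 for CD83, -1.90 for TRAF1, -1.91 for CR2 and -2.07 for CLEC17A. For the survival gene BCL2A1 the difference was -3.18, for the actin bundler FSCN1 -3.24, for the kinase SGK1 -1.61 and for the mTORC1 inhibitor DDIT4 -1.89. Genes of the cell cycle fell in both lines and by more in Raji-4RH, with differences of -2.04 for CDC45, -1.72 for E2F2, -1.60 for MCM4 and -1.54 for TYMS.

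The log2 fold change was larger in Raji-4RH for MT2A by 3.58, for LYZ by 2.06 and for SESN3 by 1.88. It was also larger for TEX19 by 1.84, for IFI6 by 1.65 and for SYT11 by 1.64. With chidamide IFI6 stood at 70.2 and 63.6 FPKM in Raji and at 51.6 and 67.0 FPKM in Raji-4RH. With DMSO it stood at 6.09 and 6.94 FPKM in Raji and at 0.925 and 1.31 FPKM in Raji-4RH. CXCL9, CCL22, FSCN1 and CR2 stood under 1 FPKM in the 4 Raji-4RH libraries, where the pseudocount of 1 limits their log2 change. It also limits that of CXCL10, CCR7 and SGK1, which were under 1 FPKM in the Raji-4RH DMSO libraries. There CXCL10 stood at 0.136 and 0.12 FPKM, CCR7 at 0.489 and 0.433 FPKM and SGK1 at 0.304 and 0.397 FPKM. With chidamide CCR7 reached 6.44 and 6.99 FPKM in Raji-4RH and SGK1 3.89 and 4.36 FPKM. Differences between the responses include the levels with DMSO, and both Raji DMSO libraries hold the liver transcripts, whose part was not tested. Single libraries that stand apart were not tested for, since each group has 2.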

How the results depend on the processing

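The 6421 calls in Raji numbered between 6075 and 6820 under the other scalings, variance model, pseudocount, filters, voom and the rows as deposited, and 6317 with a replicate block (5102 in place of 5231 for the difference between the lines). Replicate numbers were not shown to pair the Raji samples (correlation of deviations -0.091), and the paired fit kept 3223 of the genes called higher and 2899 of those called lower. Leaving out each Raji library gave 5128 to 5483 calls, 2745 to 2904 higher and 2383 to 2579 lower, 467 to 487 higher and 85 to 104 lower by at least 1, and 4044 to 4471 differences between the lines, 2286 to 2502 higher and 1758 to 1969 lower in Raji-4RH. The lone sample of a group was then assumed to vary like the others. The 4331 unshifted labels gave 2702 calls, 1387 higher and 1315 lower, 198 higher and 37 lower by at least 1, with fewer genes tested. A threshold of 1 on the log2 scale left 560 calls. Counts of large changes depended on the pseudocount, with 1007 higher and 143 lower at 0.1 and 1162 higher and 170 lower with voom. The rows as deposited shared 1717 of the genes called higher, and 617 were called in the opposite direction.

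Of 2123 values of 151 named genes under the alternatives, 2100 kept direction and side of the threshold. Calls were lost in BAK1 under 9 alternatives and, after quantile normalization, in PARP1, CD3E and PRDM1. Reversals were met only where no call stood, in MYC (-0.00153 to 0.13 when 1 library was left out, lowest without the second DMSO library) and LYZ, which was called lower after quantile normalization at -0.24. Of 750 medians of 51 gene lists under the alternatives, 366 moved by more than the spread between replicates, and 14 had the other sign, rows as deposited aside. The interferon median of 0.84 was 1.49 with a pseudocount of 0.1 and 1.74 with voom, and that of the chemokines, 1.56, was 2.23 and 2.56. Genes under 1 FPKM rest on few reads, since 1 FPKM over 1 kilobase is 19.7 to 20.8 reads here.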

Other observations

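Several further genes went from near silence to a low level with chidamide. The crystallin CRYM, a thyroid hormone binding protein, had 2 and 2 reads with DMSO and 120 and 119 with chidamide, and the mean of the chidamide libraries was 1.53 FPKM. It stayed between 0.025 and 0.0574 FPKM in the 4 Raji-4RH libraries. MOXD1, a monooxygenase, had 1 and 1 reads with DMSO and 168 and 172 with chidamide, and CDC42EP5, 0 and 2 reads against 132 and 155. In Raji-4RH, MOXD1 reached 2.05 and 2.10 FPKM and CDC42EP5 9.10 and 9.86 FPKM with chidamide. APOBEC3H, which restricts retroviruses, had 1 read in each DMSO library and 38 in each chidamide library. The S100 genes S100A7 and S100A9 had at most 1 read in each DMSO library, and 22 and 24 reads and 13 and 26 reads with chidamide. Small RNA genes also met the rule for silent genes, but with at most 8 reads in any Raji library they were too shallow to describe.

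Of the liver transcripts in the Raji DMSO libraries, AFP had 68 and 79 reads against 1 and 0 with chidamide, and APOA2 26 and 61 against 0 and 0. In Raji-4RH both genes had at most 4 reads in each library. SERPINA1, another gene of the list, had 60 and 67 reads with DMSO and 1 and 3 with chidamide in Raji, whereas in Raji-4RH it had 13 and 12 reads with DMSO and 124 and 217 with chidamide.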
